A study of Equus caballus with 12 samples.

Results

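Clusterin (CLU), cystatin C (CST3) and galectin-3 (LGALS3) are 3 proteins that cultured stromal cells release into their medium. The 3 genes were picked by symbol from the table of 1341 genes that the authors called different between treated and untreated cells, and all 3 were found in it, each once and each among the 671 genes listed as lower. The deposited fold changes and p-values of that comparison therefore chose them, and their difference between the groups is described here and not tested again.

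The cells were mesenchymal stem cells (MSCs), plastic-adherent stromal cells with the capacity to become bone, fat or cartilage, grown as primary equine bone marrow cultures from 6 donors. Each donor gave a culture kept for 72 hours in standard medium, low-glucose DMEM with fetal bovine serum (naive), and one kept equally long with recombinant human IL-1β at 2 ng/ml plus recombinant human TGF-β2 at 1 ng/ml (licensed). IL-1β drives inflammation, and TGF-β2 promotes the making of matrix. PolyA-selected RNA was sequenced in bulk, with 1 library per culture, so there were 6 naive and 6 licensed libraries paired by horse. The labels used here give no age, sex or breed.

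Clusterin is a secreted chaperone that binds unfolded proteins outside cells, travels in lipoprotein particles and restrains the terminal attack complex of complement. Cystatin C is a secreted inhibitor of papain-like cysteine proteases, the cathepsins released from lysosomes, and is found in most body fluids. Galectin-3 is a lectin that binds β-galactoside sugars on glycoproteins. It leaves cells by a route that does not need a signal peptide, and outside them it crosslinks receptors and matrix glycoproteins. Macrophages are a known rich source of galectin-3 and cystatin C, and galectin-3 made by MSCs has been studied as a suppressor of T cells.

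Values are normalized counts, that is, reads per gene divided by 1 size factor per library. They are not divided by transcript length, so they do not show which of the 3 genes had more transcripts. Depth is known for the listed genes only: the 6 naive libraries held 1672419 to 1844648 reads on them, and the 5 licensed libraries whose reads were recovered held 2718393 to 3424328. Summed over the listed genes, normalized counts in a horse's licensed library were 1.37 to 1.76 times those in its naive library. In the 11 libraries whose reads were recovered, the lowest read number was 23689 for CLU, 8492 for CST3 and 3253 for LGALS3. Counting error at these lowest read numbers was 0.650%, 1.09% and 1.75%, well under the spread between horses. Of 14 MSC surface markers, THY1 and MCAM were listed, both as lower, THY1 from 18790 ± 10276 to 2426 ± 1778 normalized counts (mean ± SD, n = 6). Both libraries of horse 1 were high in inflammatory genes such as IL6, whose values are given below, so results are also shown without horse 1. None of 23 myeloid, 9 erythroid or 11 lymphoid markers was listed as changed, and their levels are not analysed here. Of 10 endothelial markers 1 (10%) was listed, near the share of all tested genes. It was the transcription factor gene ERG, which went from 93.7 ± 32.8 to 241 ± 45.8 normalized counts and was higher in 6 of 6 horses. Of 18 adipocyte, osteoblast and chondrocyte genes, 6 (33.3%) were listed, ADIPOQ, IBSP and ALPL as higher and CEBPA, FABP4 and SOX9 as lower. The part of these genes in the results below was not tested.

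The authors' deposited table held log2 fold changes of -1.21 for CLU (ENSECAG00000007010), -2.22 for CST3 (ENSECAG00000038893) and -1.24 for LGALS3 (ENSECAG00000006474). The adjusted p-values in the authors' deposited table were 2.57e-09, 1.3e-19 and 3.36e-22. The authors' adjusted p-values correspond to 13183 tested genes, of which 10.2% were listed, 5.09% as lower and 5.08% as higher. Since the 3 genes were drawn from that 5.09%, their direction adds nothing to the listing. Listing required a log2 fold change beyond 1 in size, and the listed falls nearest to that limit, FAM20C at -1.002 and MYOF at -1.005 in the authors' deposited table, were closer to it than CLU or LGALS3. In bulk RNA, fewer cells expressing a gene and less of its RNA per cell cannot be told apart.

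CLU ranged from 62912 to 97984 normalized counts in the naive libraries, with a median of 69337. In the licensed libraries it ranged from 24226 to 53692, with a median of 29623. The groups did not overlap, but the gap was narrow, since the lowest naive library was 1.17 times the highest licensed one. That highest licensed library was from horse 1. The other 5 licensed libraries lay between 24226 and 31346, so the group was close together apart from horse 1. The mean went from 75656 ± 14378 to 32605 ± 10639 normalized counts (SD, n = 6), or 43.1% of the naive mean.

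**Figure D1:**
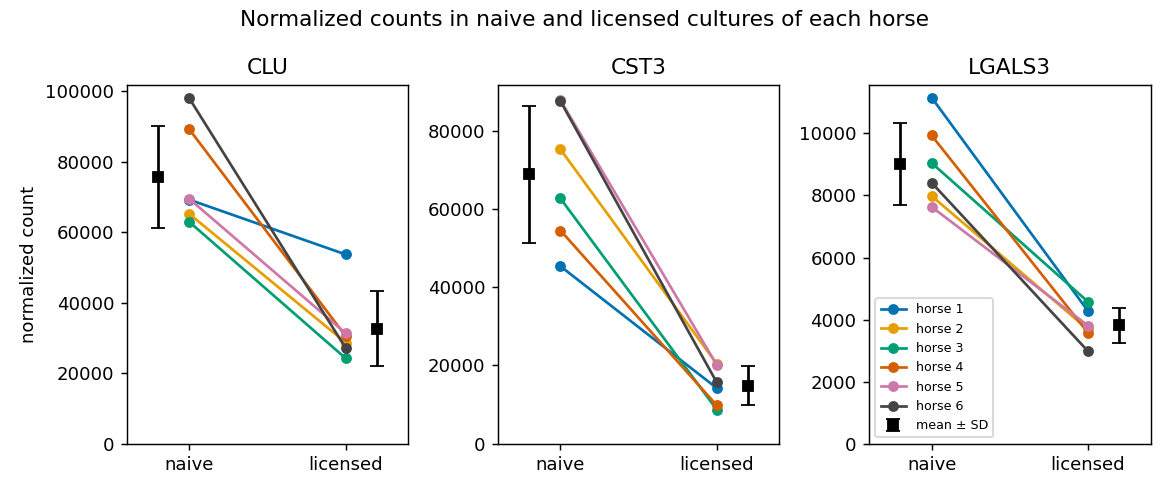
Normalized counts (vertical axis, from 0) of CLU, CST3 and LGALS3 in the naive and licensed culture of each horse, with a line joining cultures of 1 horse and black squares for the mean ± SD of 6 horses. Every line goes down, and the line of horse 1 for CLU, which ends at 53692, is the shallowest of its panel.

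Within horses, CLU was lower in the licensed culture in 6 of 6. Horse 1 was 22.4% lower, the smallest difference, and horse 6 was 72.3% lower, the largest. The other 4 horses were 54.9% to 65.8% lower. The mean log2 ratio of licensed to naive was -1.25 ± 0.50 (SD, n = 6 horses), and -1.42 ± 0.29 without horse 1. The naive level of CLU in horse 1, 69224 normalized counts, was close to the naive median, so horse 1 differed in its licensed culture. Without horse 1 the coefficient of variation of licensed CLU was 10.0%, against 32.6% with it.

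CST3 showed the largest difference of the 3 genes in every horse. It ranged from 45348 to 87752 normalized counts in naive cells, with a median of 68951, and from 8685 to 20393 in licensed cells, with a median of 14916. The lowest naive library was 2.22 times the highest licensed one, so the groups were well apart. The mean went from 68839 ± 17574 to 14799 ± 4961 normalized counts (SD, n = 6), or 21.5% of the naive mean.

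The size of the CST3 difference varied between horses. The naive level was 7.22 times the licensed level in horse 3 and 5.60 times in horse 6, but 3.19 times in horse 1 and 3.69 times in horse 2. The mean log2 ratio was -2.25 ± 0.44 (SD, n = 6), and -2.36 ± 0.37 without horse 1. Horse 1 had the lowest naive CST3 level, 45348, while its licensed level, 14195, was in the middle of its group. Horses 2 and 5 had the highest licensed levels, 20393 and 20102, and horses 3 and 4 the lowest, 8685 and 9781.

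With all 6 horses, LGALS3 had the lowest spread between horses of the 3 genes. It ranged from 7631 to 11155 normalized counts in naive cells, with a median of 8729, and from 2981 to 4574 in licensed cells, with a median of 3743. The groups did not overlap, and the lowest naive library was 1.67 times the highest licensed one. The mean went from 9027 ± 1324 to 3815 ± 559 normalized counts (SD, n = 6), or 42.3% of the naive mean. The coefficient of variation was 14.7% in naive and 14.6% in licensed cells, against 19.0% and 32.6% for CLU and 25.5% and 33.5% for CST3. Without horse 1 it was 15.4% for LGALS3 in licensed cells, 10.0% for CLU and 37.1% for CST3. Licensed CLU then had the lowest spread.

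Within horses, LGALS3 was 49.4% to 64.6% lower in the licensed culture. The log2 ratios formed a narrow range from -1.50 in horse 6 to -0.98 in horse 3, with a mean of -1.24 ± 0.24 (SD, n = 6). Leaving out horse 1 gave -1.22 ± 0.25. CLU and LGALS3 thus had nearly the same mean log2 ratio with all horses, and differed in how much the horses varied. Without horse 1 the means were -1.42 ± 0.29 (SD) for CLU and -1.22 ± 0.25 for LGALS3, so the spreads were then close. Horse 6 had the largest fall for both CLU and LGALS3, while horse 3 had the largest for CST3 and the smallest for LGALS3.

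**Figure D2:**
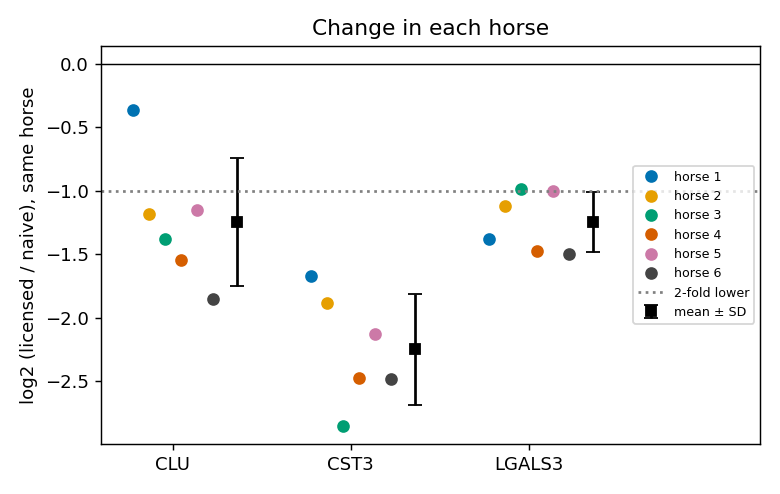
Log2 ratio of the licensed to the naive normalized count in each horse (coloured points) with the mean ± SD of 6 horses (black squares), for the 3 genes. The points of CST3 lie between -2.85 and -1.68, those of LGALS3 between -1.50 and -0.98, and CLU in horse 1 lies at -0.37, apart from its other 5 points.

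A fit of limma to log2(normalized count + 1) over all 1341 listed genes, with no horse term, gave SEs for these differences. It drew on the variances of genes selected for their difference, so the SEs can be too small. The estimates were -1.25 ± 0.19 (SE) for CLU, -2.25 ± 0.24 for CST3 and -1.24 ± 0.14 for LGALS3. With the horse as a block the estimates stayed as they were, and the SE was 0.17, 0.15 and 0.11.

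The ratio of one gene's reads to another's within a library does not depend on the size factor. The ratio of CLU to CST3 reads was 0.791 to 1.64 in naive libraries, with a median of 1.06, and 1.41 to 3.78 in licensed libraries, with a median of 2.26. It was above 1 in 4 naive and in 6 licensed libraries. The ratio of CST3 to LGALS3 had a median of 8.18 in naive and 4.28 in licensed libraries, and that of CLU to LGALS3 of 8.57 and 8.39. In reads, therefore, CST3 lost ground to both other genes. The ratio of CLU to LGALS3 went from 6.21 in naive to 12.6 in licensed cells of horse 1. In each of horses 2 to 6 that ratio was lower in the licensed library. It lay between 6.95 and 11.7 in their naive and between 5.30 and 9.10 in their licensed libraries.

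The share of the listed genes' normalized counts that fell on the 3 genes together was 7.02% to 10.7% in naive libraries and 1.26% to 2.29% in licensed libraries. CLU took 3.49% to 5.40% of them in naive cells and 0.815% to 1.71% in licensed cells. CST3 took 2.53% to 4.84% and then 0.292% to 0.776%, and LGALS3 0.421% to 0.623% and then 0.120% to 0.154%. The denominator of these shares was itself higher in licensed libraries.

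Among the 671 genes listed as lower, 134 had a larger deposited fall than CST3, 472 a larger one than LGALS3 and 492 a larger one than CLU. The median deposited log2 fold change of all 671 was -1.48, so CST3 lay beyond the median and CLU and LGALS3 short of it. The SD of the log2 ratio between horses was smaller than that of LGALS3 in 97 of the 671 genes, smaller than that of CST3 in 289 and smaller than that of CLU in 344. The median SD was 0.49. Of the 671 genes, 626 (93.3%) were lower in all 6 horses, and in 359 (53.5%) the groups did not overlap, as they did not for the 3 genes here.

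With CLU and LGALS3 left aside, the 4 lower genes with a symbol nearest to CST3 in mean normalized count had smaller deposited falls. They were not close in level, at 15111 to 29570 against 41819 for CST3. In the authors' deposited table LMNA, which encodes A-type lamins, was at -1.22, the calcium-binding protein genes S100A6 and S100A4 were at -1.36 and -2.09, and the oxidase gene CYP1B1 was at -1.55. The neighbours of LGALS3 were the tetraspanin gene CD9 at -1.32, KANK2 at -1.34, the caveolin gene CAV1 at -1.18 and S100A10 at -1.69 in the authors' deposited table. Of the 18 lower genes with a mean normalized count at least that of LGALS3, all 18 were lower in every horse, and the groups did not overlap in 17. The 18 include CLU, CST3 and LGALS3 themselves.

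**Figure D3:**
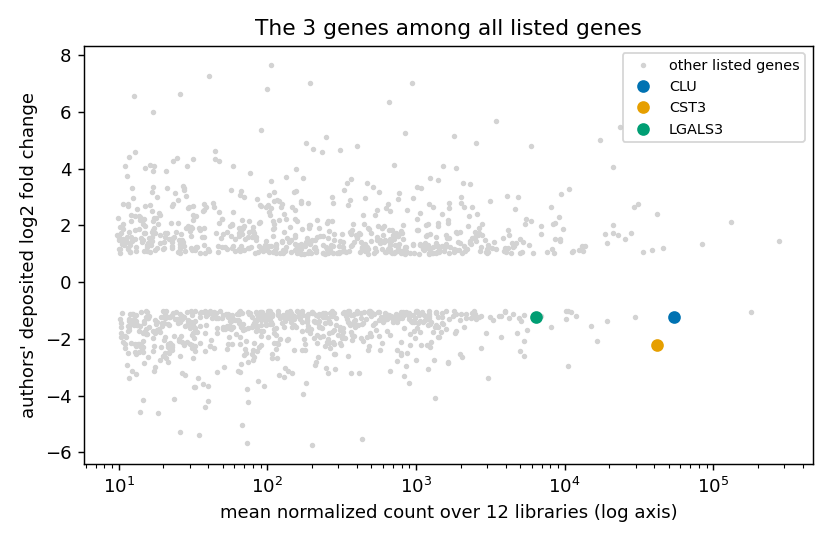
The authors' deposited log2 fold change (vertical) against the mean normalized count over 12 libraries (horizontal, log axis) for the listed genes, with the 3 genes in colour. CLU and CST3 lie far to the right among the lower genes, CST3 at -2.22, with CLU and LGALS3 near the inner edge at -1.21 and -1.24.

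The order of the horses in naive cells was compared with their order in licensed cells, which the listing did not use. Across the 6 horses, Pearson's r between the naive and the licensed log2 level was 0.57 for CST3 (Spearman's rho 0.60), 0.38 for LGALS3 (rho 0.20) and -0.11 for CLU (rho 0.20). Exact two-sided permutation tests gave p = 0.246, 0.482 and 0.863 for r, and 0.723, 0.723 and 0.863 after Benjamini-Hochberg adjustment over the 3 relations. The exact permutation p for rho was 0.242, 0.714 and 0.714, and 0.714 for each after adjustment. Without the 2 horses farthest from the naive median, r over 4 horses was 0.76 for CST3, 0.24 for LGALS3 and 0.75 for CLU. No relation passed. The smallest exact two-sided p that 6 horses allow is 0.00139 for r and 0.00278 for rho.

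The 3 genes did not vary together between horses. After the mean of each group was subtracted, so that the difference between naive and licensed cells played no part, the correlation over the 12 libraries was 0.18 between CLU and CST3, 0.19 between CLU and LGALS3 and -0.62 between CST3 and LGALS3. Without horse 1 these were 0.23, 0.038 and -0.55 over 10 libraries. The 2 libraries of a horse are not independent of each other, so these values are descriptions. LGALS3 was above and CST3 below the group's mean in naive horses 1, 3 and 4 and in licensed horse 3. Both were above it in licensed horses 1 and 5, and both below it in licensed horse 4.

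By the same measure, each of 850 other listed genes with a symbol and a mean of at least 50 normalized counts was compared with each of the 3. The genes most like LGALS3 were RUNX1, a transcription factor of blood and bone development (r = 0.90), LIF, a cytokine of the interleukin 6 family (0.87), TTC39B (0.83) and the inflammatory cytokine gene IL6 (0.83). All 4 were listed as higher in licensed cells, whereas LGALS3 was lower. Naive IL6 was 609 in horse 1 and 26.8 to 38.9 in the rest, in normalized counts. LGALS3 was highest in that same naive library, at 11155. In licensed cells IL6 was highest in horse 1 with 17440 and horse 3 with 13212, and LGALS3 was highest in horse 3 with 4574 and horse 1 with 4275.

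Without horse 1 the correlation of LGALS3 with RUNX1 was 0.85, with LIF 0.79, with TTC39B 0.77 and with IL6 0.79, over 10 libraries. The licensed library of horse 3 was still among them, with LIF at 6058 and IL6 at 13212 normalized counts, the highest of the 10. The likeness without that library was not measured. IL6 met the minimum of 50 in the 10 libraries only in licensed cells, since naive horses 2 to 6 varied between 26.8 and 38.9. Of the 50 genes most like LGALS3, 47 were listed as higher, and 39 without horse 1. Among all 850 genes compared, 436 were listed as higher. The count of 50 was chosen after these values were seen. LGALS3 was thus lower in the licensed than in the naive culture of each horse, while its deviations from the group means were most like those of genes listed as higher. The part of horse 1 and of the summed level of the listed genes in this likeness was measured only by leaving out horse 1, as above, and by scaling to that sum, which left 43 of the 50 most alike genes listed as higher.

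CST3 showed the other pattern. The genes most like it were ADHFE1, a mitochondrial dehydrogenase gene (r = 0.86), PRELP, which encodes a leucine-rich matrix protein (0.85), VSTM4 (0.84) and the desmosomal cadherin gene DSG2 (0.82). ADHFE1, PRELP and VSTM4 were listed as lower, as CST3 was, and DSG2 as higher. DSG2 passed the minimum of 50 only through the licensed group, with a mean of 174 normalized counts there and 34.0 in naive cells, where horse 1 was at 5.29. Without horse 1 the correlations were 0.84, 0.88, 0.93 and 0.84. PRELP was lowest in horse 1 among naive cells, with 303 normalized counts against 963 to 2946 in the others, and lowest in horse 3 among licensed cells, with 235. CST3 was lowest in the same 2 libraries. Of the 50 genes most like CST3, 42 were listed as lower, 44 without horse 1 and 40 after scaling to the summed listed genes.

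The likeness of other genes to CLU rested in part on horse 1. The most alike were the chondroitin synthase gene CHSY1 (r = 0.81), the kinase gene PRKX (0.79), the glycolysis regulator gene PFKFB3 (0.78) and the MYC family gene MYCL (0.76), all listed as higher. Without horse 1 the correlation with PRKX was 0.79, but that with CHSY1 was 0.52, with PFKFB3 0.43 and with MYCL 0.53. Licensed PFKFB3 reached 32248 normalized counts in horse 1 and lay between 10581 and 14528 in the rest. CLU in that library was 53692, the value that stood apart. Of the 50 genes most like CLU, 40 were listed as higher, 34 without horse 1 and 37 after scaling, so for CLU as for LGALS3 most of the alike genes were listed in the opposite direction.

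**Figure D4:**
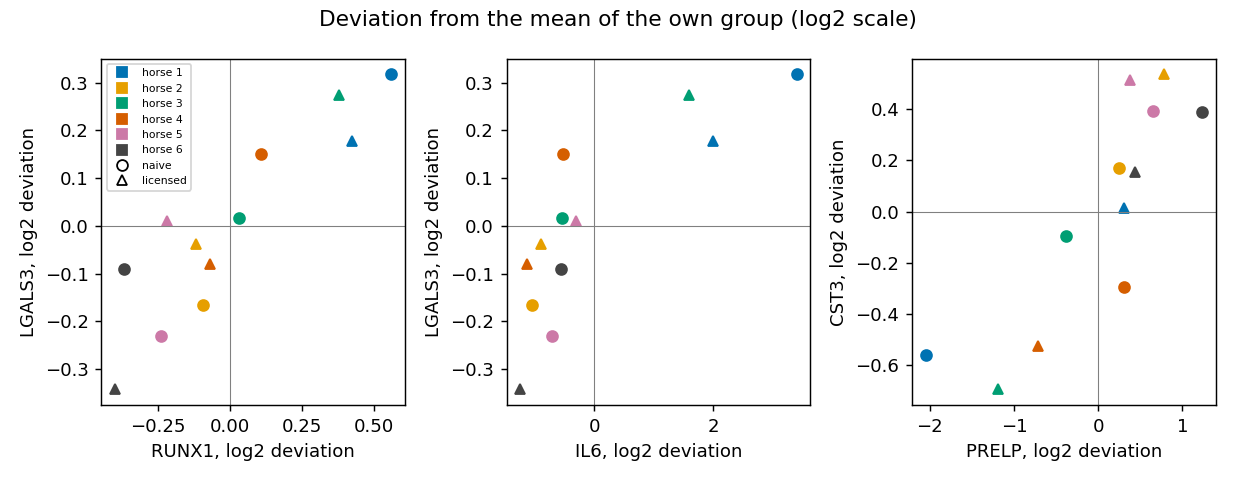
Deviation of each library from the mean of its own group on the log2 scale, for LGALS3 against RUNX1, LGALS3 against IL6 and CST3 against PRELP, with circles for naive and triangles for licensed libraries and 1 colour per horse. LGALS3 rises with RUNX1 (r = 0.90) across both groups, and in the IL6 panel both libraries of horse 1 and the licensed library of horse 3 lie to the upper right.

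Lists of genes that act with the 3 proteins can be counted only by the authors' calls, since genes that were not listed have no values here. All listed genes divided into 670 higher and 671 lower, so that their median deposited log2 fold change, -1.002, is that of the smallest fall. How many members of each list were among the tested genes is not known, so a share of a list is the least that the share of its tested members can be, and only a share above the 10.2% of all tested genes can be read against it. The lists were written with earlier results of these data known, so a share above 10.2% is a description. CST3 was the only member listed of 19 cystatin superfamily genes, and LGALS3 the only one of 14 galectin genes. Of 13 cysteine proteases that cystatins can inhibit, 1 was listed. It was CTSL, the cathepsin L gene, listed as higher, which went from 12.4 ± 5.03 to 40.1 ± 18.3 normalized counts (SD, n = 6) and was higher in 6 of 6 horses.

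Of 51 genes counted here as other lysosomal genes, 4 were listed, all as lower, with a median deposited log2 fold change of -1.92. They were ATP6V0D2, a subunit of the proton pump, GPNMB, a membrane glycoprotein, the aspartic protease gene CTSE and SGSH, a heparan sulfatase gene. GPNMB went from 967 ± 555 to 219 ± 184 normalized counts and SGSH from 1308 ± 200 to 587 ± 109 (SD, n = 6). CTSE was near the floor, at 27.8 ± 9.08 in naive and 8.61 ± 4.48 in licensed cells. The 4 genes were 7.84% of the list.

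Of 14 clusterin receptors, 2 (14.3%) were listed, in opposite directions. VLDLR, a lipoprotein receptor that can take up clusterin, was higher, with naive and licensed means of 1367 ± 337 and 2930 ± 685 normalized counts, and SORL1, a sorting receptor, was lower, with 266 ± 67.1 and 101 ± 36.9 (SD, n = 6). None of 20 complement inhibitors and terminal complement genes was listed. Of 26 genes for chaperones, apolipoproteins and lipid handling, 5 were listed as lower and 1 as higher, together 23.1% of the list. Their median deposited log2 fold change was -2.38. The apolipoprotein genes APOA1 and APOD were at -3.56 and -1.97 in the authors' deposited table, the protease-trapping protein gene A2M at -3.29 and the small heat shock protein gene CRYAB at -2.79. The lipid transfer protein gene PLTP, at -1.19, was also lower, and the collagen chaperone gene SERPINH1, at 1.38, was higher.

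Of 38 genes for galectin-3 binding partners and N-glycan branching, 4 were listed as higher and 2 as lower, together 15.8%. Their median deposited log2 fold change, 1.26, lies between the 2 smallest of the 4 rises and is not a typical value. The transferrin receptor gene TFRC went from 1949 ± 545 to 16930 ± 5744 normalized counts and the integrin gene ITGA5 from 10982 ± 1628 to 34825 ± 10021 (SD, n = 6). The surface protein gene CDCP1 and the sialyltransferase gene ST6GAL1 were also higher, and MCAM and the phagocytosis receptor gene MERTK were lower.

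Of 32 secreted protease inhibitors other than cystatins, 4 were listed as higher and 5 as lower, together 28.1%. Their median deposited log2 fold change, -1.79, is that of SERPINF1, the smallest of the 5 falls, and is not a typical value. PAPLN, A2M and WFDC1 were lower, at -3.37, -3.29 and -3.08 in the authors' deposited table, and the elastase inhibitor gene SLPI was higher, at 3.24. Of 70 other secreted proteins found in MSC medium, 17 were listed as higher and 8 as lower, together 35.7%. Their median, 1.28, is that of STC1 and lies among the smaller rises. IL6, CXCL8 and LIF were the largest rises of that list in the authors' deposited table, at 5.68, 5.27 and 4.10, and SFRP4, a Wnt antagonist gene, was its largest fall, at -4.10. CLU, CST3 and LGALS3 were thus lower in cells in which more genes of this list were higher than lower. No list was tested.

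**Figure D5:**
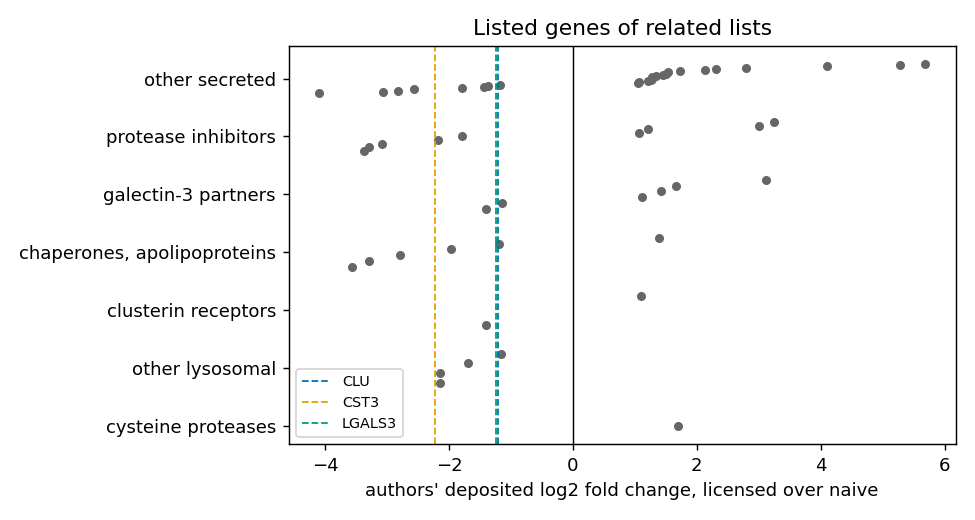
The authors' deposited log2 fold changes (horizontal) of the listed members of 7 gene lists (rows), with dashed lines at CLU, CST3 and LGALS3. The chaperone and apolipoprotein row has 5 points below 0 and 1 above, and the row of other secreted proteins has 8 below and 17 above.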

How the data were processed

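One deposited table was used. The authors' 12 library columns hold a signal, each gene's read number over the library's size factor, and their other columns hold the log2 fold change, the p-value and its adjusted form. Per the submitters' processing notes, Trimmomatic 0.36, STAR 2.5.2b, featureCounts of Subread 1.5.2 and DESeq2 were used. Build, annotation and strandedness are not stated there, so reads of overlapping genes cannot be told apart. Listed changes start at 1.001 (absolute log2).

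Dividing by 1 step per library turned 100% of its values into whole reads (tolerance 0.01). The step of horse 1's licensed library, 1.0097, lies so near 1 that its reads were not used as recovered. A total of 13183 tested genes made 89.9% of the ranks behind the adjusted p whole (tolerance 0.05), and the runner-up 17.8%.

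log2(normalized count + 1) of all listed genes and 12 libraries was fitted with limma 3.58.1 (trend, robust, no horse term, R 4.3.3). The fit was tried on simulated counts with no horse effect and with most genes unchanged. These data differ in both, so that trial does not show its accuracy here. edgeR 4.0.16 and DESeq2 1.42.0 were alternatives. The labels pair libraries by donor; deviations of same-horse libraries from their group means correlated across genes at 0.48 to 0.63, and all 6 horses matched best with themselves. Named genes were the 3 genes, the 4 most alike of each, their neighbours in read number, all listed members of small lists and up to 4 of larger ones, with further members named after their values were seen. Members and lists were chosen with earlier results of these data known.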

Additional observations from a re-analysis of the deposited data

Results flagged for a closer look

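In the licensed group, 1 value stood apart: CLU in horse 1 was at 53692 normalized counts, and its gap to the next highest library, 31346, divided by the group's range was 0.758, above Dixon's 95% critical value for 6 samples. Chance flags about 1 in 20 groups, and 9 groups were examined (naive counts, licensed counts and log2 ratios of the 3 genes). The log2 ratio of the same horse, -0.37, did not pass the same limit.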

How the results depend on the processing

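The log2 fold changes of CLU, CST3 and LGALS3 kept their sign in all 15 alternatives each. The 3 genes were chosen for this difference and were lower in 6 of 6 horses. Leaving out horses could therefore not turn the sign, and the kept sign gives no support to the difference. Leaving out each horse in turn, or the licensed library of horse 1 alone, gave -1.42 to -1.12 for CLU, -2.36 to -2.13 for CST3 and -1.29 to -1.19 for LGALS3. With the horse as a block the estimates were -1.25, -2.25 and -1.24, the same as without the pairing, and no call was made. Scaling each library to its reads on listed genes, which moved the median listed gene by -0.61, gave -1.86, -2.87 and -1.86, each farther from the main value than the SD between horses. Count fits planned for 12 libraries were not run, because the reads of 1 library were not accepted as recovered. Added after seeing the data, on horses 2 to 6, edgeR gave -1.44, -2.30 and -1.21, and DESeq2 the same to 2 decimals. TMM factors over the listed genes, a set chosen for change, gave -1.64, -2.59 and -1.44.

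No relation between naive and licensed levels passed in any alternative. For CLU, r of -0.11 turned to 0.20 as Spearman's rho and 0.033 when scaled to reads on listed genes, with a range of -0.41 to 0.24 when 1 horse was left out. For LGALS3, r of 0.38 turned to -0.15 when scaled in that way, with a range of 0.12 to 0.48 when 1 horse was left out, and for CST3 that range was 0.43 to 0.82. The cause of these turns was not tested. Scaling left the likeness of LGALS3 to RUNX1 at 0.82 and to IL6 at 0.76, and turned that of CLU to LGALS3 to -0.039. The depth of whole libraries is unknown.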
